A study of Mus musculus with 20 samples.

Results

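A set of 10 core genes of the circadian clock was chosen by name, with earlier results of these data known. All 10 were among the 24528 rows of the deposited table and among the 17863 genes that could be tested. They were Arntl (the gene of BMAL1), Npas2, Per1, Per2, Per3, Dbp, Tef, Nr1d1, Nr1d2 and Ciart. Total RNA depleted of ribosomal RNA had been sequenced from neocortex and hippocampus of mice aged 18 months. TDP-43KQ/KQ mice are homozygous for a CRISPR knock-in, made in C57BL/6J zygotes, that replaces lysine by glutamine at the acetylation site of TDP-43, an RNA-binding protein encoded by Tardbp, and the TDP-43wt mice carry no knock-in. The neocortex gave 5 TDP-43wt libraries (3 female, 2 male) and 6 TDP-43KQ/KQ libraries (3 female, 3 male), and the hippocampus gave 4 TDP-43wt (3 female, 1 male) and 5 TDP-43KQ/KQ (3 female, 2 male). The allele is present in every cell of the body from conception, and the labels do not say from which founder each mouse descends. The colony was kept on a regular light-dark cycle; the hour at which each mouse was killed is not given in the sources used here.

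The clock of mammalian cells is a feedback loop of transcription. BMAL1 pairs with CLOCK or with its relative NPAS2 and activates genes through E-boxes, among them the Per and Cry genes, whose proteins return to the nucleus and inhibit that pair. The nuclear receptors REV-ERB alpha and beta (Nr1d1 and Nr1d2) are activated by the same pair and repress Arntl through ROR elements, so that in rhythmic tissues the Arntl transcript peaks at the opposite phase from Per, Dbp and Nr1d1 transcripts. Dbp and Tef encode PAR-bZIP activators that bind D-boxes, and Ciart (also called Chrono) encodes a repressor of BMAL1. Neocortex and hippocampus both express these genes rhythmically, with a phase set by the master clock of the hypothalamus.

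Promoter sequences of RefSeq (GRCm38.p6, the assembly also called mm10; 250 bases before to 50 bases after each start site) were found for 9 of the 10 genes, all but Per2, as 12 promoters. The letters searched on both strands were the E-box CACGTG, the E-prime box CACGTT, the ROR element core AGGTCA and the D-boxes TTATGTAA and TTACGTAA, and no match overlapped another. The stretches that hold a match before the start site are shown because the loop is known to run through elements with these letters. Whether these particular matches are working elements was not tested. Capitals mark the match, and all are written 5′ to 3′ on the strand of the gene.
Ciart, chr3:95882247-95882364, minus strand: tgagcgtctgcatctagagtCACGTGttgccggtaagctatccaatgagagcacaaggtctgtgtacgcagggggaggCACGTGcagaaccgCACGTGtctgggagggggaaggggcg
Per1, chr11:69098763-69098837, plus strand: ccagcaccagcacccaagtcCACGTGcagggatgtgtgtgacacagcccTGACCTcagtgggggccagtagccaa
Tef, first start, chr15:81802526-81802571, plus strand: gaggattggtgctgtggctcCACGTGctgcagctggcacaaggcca
Tef, second start, chr15:81811256-81811301, plus strand: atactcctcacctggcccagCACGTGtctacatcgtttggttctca
Per3, chr4:151044796-151044890, minus strand: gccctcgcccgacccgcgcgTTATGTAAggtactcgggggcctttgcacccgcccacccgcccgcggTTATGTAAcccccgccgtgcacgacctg
Nr1d1, chr11:98775380-98775425, minus strand: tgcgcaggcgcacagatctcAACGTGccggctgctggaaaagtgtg
Nr1d2, chr14:18239158-18239203, minus strand: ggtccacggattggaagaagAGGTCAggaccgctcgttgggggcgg
Ciart held 3 E-boxes, which began 116, 58 and 44 bases before its start site. Per1 held an E-box 166 bases before its first start and a reversed ROR core (TGACCT) at 137 bases. Each of the 2 promoters of Tef held an E-box, at 127 and 138 bases. Per3 held no E-box in this window but 2 D-boxes, at 205 and 158 bases, and Nr1d1 held an E-prime box on the reverse strand at 28 bases. The ROR core stood 77 bases before the start of Nr1d2 and 31 bases after the second start of Arntl. The windows of Npas2 and Dbp held none of these letters. Of all 32851 promoters of the same length, 7.15% held the E-box, 4.68% the E-prime box, 16.3% the ROR core and 1.06% a D-box.

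The deposited values are on a log2-like scale, with sex and litter already removed, and each gene is set relative to its mean in the 6 neocortex TDP-43KQ/KQ libraries. They hold no counts, so the depth is unknown and the expression level of a gene, or of one gene against another, cannot be read from them. The removal of litter fixed some values. Within each litter the deviations from the group means sum to 0, so neocortex TDP-43wt male 1, the sole library of its litter, lies exactly on the mean of the other TDP-43wt neocortex libraries, and the 2 libraries of TDP-43KQ/KQ female 2, alone in theirs, deviate by equal amounts in opposite directions. The females of the 2 regions carry matching genotypes, numbers and litters and may be the same 6 mice, which the labels do not state. Tardbp was higher in every TDP-43KQ/KQ library than in any TDP-43wt library of its region, by 1.00 ± 0.089 (SE, log2) in the neocortex and 0.83 ± 0.095 in the hippocampus (limma, adjusted p = 0.000117 and 0.00163). Of 5 hippocampal markers, 4 were higher in the hippocampus in TDP-43wt mice and 5 in TDP-43KQ/KQ mice (limma, adjusted p under 0.05). Beside them, 2418 and 3069 of 17863 genes were higher by the same test. Of 5 neocortical markers 4 were lower in the hippocampus in both genotypes, beside 14.7% and 18.2% of all genes, and Fezf2 was higher.

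The first question was whether the genotype moves the clock genes in the neocortex. No member passed the test there (limma with group, sex and litter, Benjamini-Hochberg over 17863 genes, adjusted p under 0.05), beside 40 genes of the whole table (0.224%). Per1 and Tef lay just outside the threshold, with adjusted p = 0.0508 and 0.0502. All 5 Per and PAR-bZIP genes of the set had positive differences, with a median of 0.30 against 0.00 over all genes tested. Hlf, a PAR-bZIP gene outside the set, differed by 0.05 ± 0.056 (adjusted p = 0.714, limma). Arntl and Npas2 had small negative differences. In bulk tissue a difference of this kind cannot be told apart from a change in the number of cells that express the gene. Nor can it be told apart from a difference between the genotypes in phase or in the hour of death, which is not given.

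Per1, a period gene that light and glucocorticoids induce directly, had values of -0.21, -0.52 and -0.34 in the TDP-43wt females and -0.36 and -0.35 in the males. In the 6 TDP-43KQ/KQ neocortex libraries it ran from -0.17 through a median of 0.01 to 0.10. The groups did not overlap, and the difference was 0.36 ± 0.070 (log2, SE), a ratio of 1.28 (adjusted p = 0.0508, limma). Without TDP-43wt female 1 or TDP-43KQ/KQ male 3 of the neocortex, or without hippocampus TDP-43wt female 2, which enters through the shared sex, litter and spread, the adjusted p was 0.0406, 0.0344 and 0.0326. Over all single libraries left out the difference of Per1 ran from 0.30 to 0.40 and its adjusted p from 0.0326 to 0.218, the latter without TDP-43KQ/KQ female 1 of the neocortex.

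Tef had values of -0.27, -0.30 and -0.19 in TDP-43wt females and -0.25 and -0.24 in males, against -0.09 to 0.06 with a median of 0.01 in TDP-43KQ/KQ. Here too every TDP-43KQ/KQ library stood above every TDP-43wt library. The difference was 0.25 ± 0.048, a ratio of 1.19 (adjusted p = 0.0502, limma), with the 42nd lowest p in the table. Its adjusted p was 0.0378 without neocortex TDP-43KQ/KQ male 1, and 0.0402, 0.0408 and 0.0467 without hippocampus TDP-43wt female 2, TDP-43KQ/KQ female 3 and TDP-43KQ/KQ male 2. Over all single libraries left out the difference of Tef ran from 0.23 to 0.28 and its adjusted p from 0.0378 to 0.201, again highest without neocortex TDP-43KQ/KQ female 1.

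Ciart, the E-box-rich repressor gene, had -0.24, -0.22 and -0.20 in TDP-43wt females and -0.19 and -0.08 in males. In TDP-43KQ/KQ it ran from -0.07 through -0.01 to 0.11, so that the highest TDP-43wt value and the lowest TDP-43KQ/KQ value were close but did not cross. The difference was 0.19 ± 0.051 (adjusted p = 0.155, limma). Per1, Tef and Ciart were the 3 members in which every TDP-43KQ/KQ library exceeded every TDP-43wt library, a pattern met by 4.29% of all genes tested; in these 3 genes neither edge was set by TDP-43wt male 1 or TDP-43KQ/KQ female 2.

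Per2 had a difference of similar size and more spread. Its values were -0.11, -0.52 and -0.44 in TDP-43wt females and -0.34 and -0.27 in males, against -0.17 to 0.17 (median 0.01) in TDP-43KQ/KQ, so the groups overlapped through TDP-43wt female 1. The difference was 0.34 ± 0.12 (adjusted p = 0.241, limma). With Per1, Tef and Ciart it was among 4 members higher at an unadjusted p under 0.05, beside 7.50% of all genes tested. Per3 differed by 0.30 ± 0.19 (adjusted p = 0.468): 2 TDP-43KQ/KQ libraries, female 1 at 0.26 and male 3 at 0.42, lay apart from the other 4, which ran from -0.23 to -0.13. The TDP-43wt values of Per3 were -0.56 to -0.17, and of those 4 libraries female 2 and male 2 stood above them.

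The remaining output and repressor genes had smaller differences. Dbp differed by 0.13 ± 0.080 (adjusted p = 0.449) and Nr1d1 by 0.11 ± 0.067 (adjusted p = 0.453), and the groups overlapped in both. Without TDP-43KQ/KQ female 1 the difference of Dbp was 0.03 and that of Nr1d1 0.04; without TDP-43wt male 2 they were 0.21 and 0.21. Nr1d2 differed by 0.02 ± 0.057 (adjusted p = 0.898). Nr1d1 shares 1075 bases at its 3′ end with Thra on the opposite strand in the RefSeq annotation of mm10. Whether reads were assigned by strand is not given in the sources used here.

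The activators showed no difference beyond their error. Arntl, at the opposite phase of the loop, had 0.14, 0.09 and 0.03 in TDP-43wt females and 0.05 and -0.06 in males, against -0.10 to 0.04 (median 0.01) in TDP-43KQ/KQ. Its groups overlapped over most of their range, with a difference of -0.05 ± 0.057 and a 95% interval from -0.17 to 0.07 (adjusted p = 0.702, limma). The difference of Arntl was -0.12 without TDP-43wt male 2 and -0.02 without TDP-43wt female 1. Npas2 differed by -0.06 ± 0.066 (adjusted p = 0.661).

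**Figure D1:**
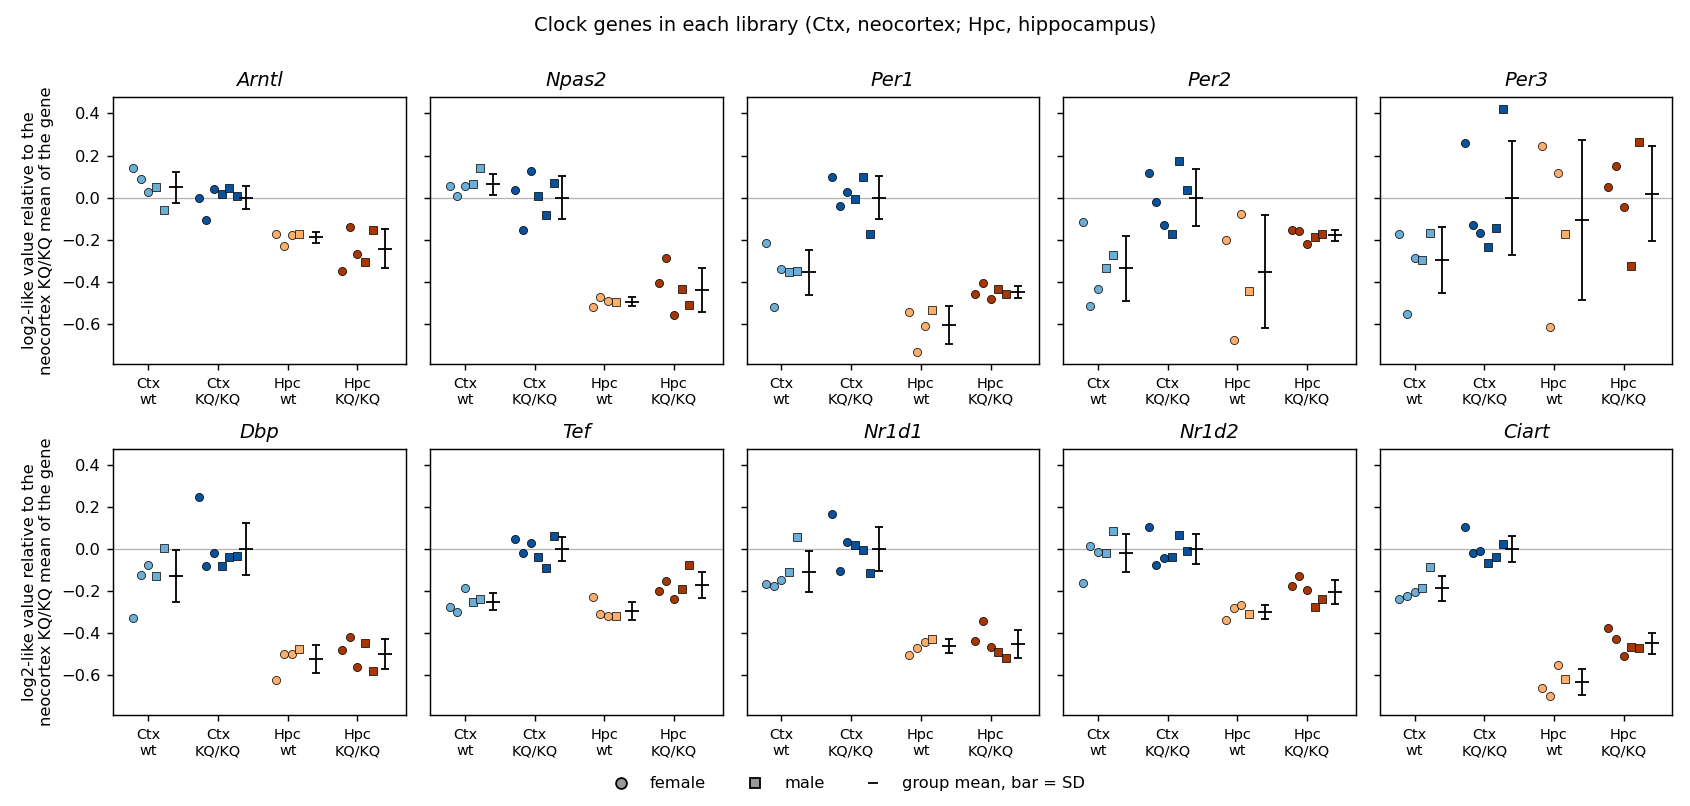
Deposited log2-like value of each clock gene in each of the 20 libraries, by region and genotype; circles are female, squares male, and the bar beside each group is its mean with the SD. Per1, Tef and Ciart separate the neocortex genotypes without overlap, whereas Per2 and Per3 spread widely within groups and most other members sit lower in both hippocampal groups.

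In the hippocampus no member passed the test either, beside 69 genes of the whole table (0.386%). Of the 10 differences 9 were positive, with a median of 0.11 against 0.00 over all genes. Ciart and Tef were higher at an unadjusted p under 0.05, beside 7.19% of all genes tested, and Per1 and Ciart did not overlap between genotypes, beside 4.19%.

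Ciart had values of -0.66, -0.70 and -0.55 in the TDP-43wt females and -0.62 in the male. The TDP-43KQ/KQ values were -0.37, -0.43 and -0.51 in females and -0.47 and -0.47 in males, all above the TDP-43wt values. The difference was 0.18 ± 0.055 (adjusted p = 0.168, limma), against 0.19 in the neocortex. Per1 had -0.54, -0.73 and -0.61 in TDP-43wt females and -0.53 in the male, against the narrow span of -0.48 to -0.41 in the 5 TDP-43KQ/KQ libraries. Its groups did not overlap, and the difference was 0.16 ± 0.075 (adjusted p = 0.346, limma).

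Tef had -0.23, -0.31 and -0.32 in TDP-43wt females and -0.32 in the male, and -0.24 to -0.08 in TDP-43KQ/KQ. TDP-43wt female 1 reached into the TDP-43KQ/KQ range, and the difference was 0.12 ± 0.052 (adjusted p = 0.286, limma). Per2 had -0.20, -0.68 and -0.08 in TDP-43wt females and -0.45 in the male, while the 5 TDP-43KQ/KQ libraries lay between -0.22 and -0.16, inside the TDP-43wt range. The difference of Per2 was 0.17 ± 0.13 (adjusted p = 0.549) and without TDP-43wt female 2 it was 0.06. The difference of Per3, 0.13 ± 0.20 (adjusted p = 0.818), had the opposite sign without that library, at -0.05.

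Dbp, Nr1d1 and Nr1d2 differed by 0.03 ± 0.086, 0.01 ± 0.072 and 0.10 ± 0.061 in the hippocampus (adjusted p = 0.918, 0.955 and 0.483, limma). For Arntl the TDP-43wt values were -0.17, -0.23, -0.18 and -0.17, within the span of -0.35 to -0.14 of the TDP-43KQ/KQ libraries. The difference of Arntl was -0.05 ± 0.061, with a 95% interval from -0.18 to 0.08 (adjusted p = 0.716, limma), and that of Npas2 was 0.05 ± 0.070 (adjusted p = 0.759).

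**Figure D2:**
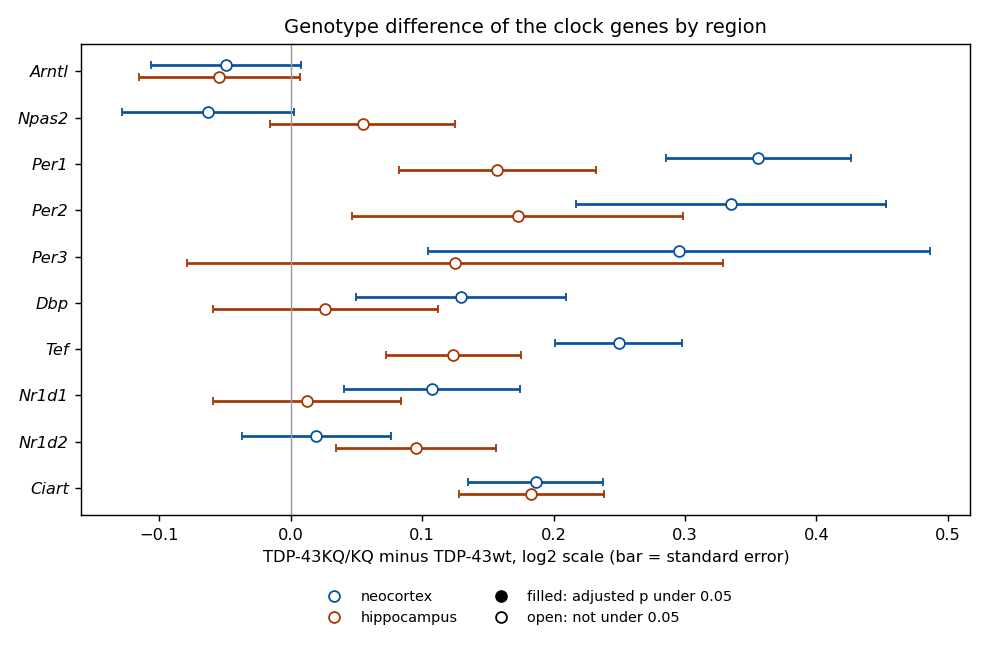
Difference of TDP-43KQ/KQ from TDP-43wt on the log2 scale for each clock gene in neocortex and hippocampus, with its standard error; open symbols did not pass the adjusted test. The differences of the Per genes and Tef are positive in both regions and larger in the neocortex, those of Ciart are 0.19 and 0.18, and those of Arntl are -0.05 in both.

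The genotype difference of the hippocampus was then tested against that of the neocortex in the same fit. None of the members passed, and none of the 17863 genes did (0%; 1041 genes at an unadjusted p under 0.05, limma). The lowest p among the members belonged to Per1, whose difference was smaller in the hippocampus by 0.20 ± 0.096 (95% interval of the contrast from -0.40 to 0.01, adjusted p = 0.829), followed by Tef at -0.13 ± 0.066 (adjusted p = 0.829). For Ciart the contrast was 0.00 ± 0.070 and for Arntl -0.01 ± 0.078.

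A genotype difference that depends on sex was not called for any member or any gene of the table either (0%; 1020 genes at an unadjusted p under 0.05, limma). The member with the lowest p was Nr1d1, whose genotype difference was lower in males than in females by 0.28 ± 0.092 (adjusted p = 0.83). Dbp and Ciart had values in the same direction, -0.26 ± 0.12 and -0.16 ± 0.080 (adjusted p = 0.873 for both). For Dbp the value was -0.13 without neocortex TDP-43KQ/KQ female 1. The males number 2 and 3 in the neocortex and 1 and 2 in the hippocampus.

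Since the 2 arms of the loop peak at opposite phases, the mean of Per1, Per2, Per3, Dbp and Tef was set against Arntl in each library, as a description without a test. In the neocortex the 5-gene mean was 0.27 higher in TDP-43KQ/KQ mice, with Arntl 0.05 lower. The difference of the mean from Arntl was -0.36, -0.49 and -0.29 in the TDP-43wt females and -0.32 and -0.15 in the males, and ran from -0.12 through 0.00 to 0.16 in the TDP-43KQ/KQ libraries. The genotypes did not overlap and their means lay 0.32 apart (SD within groups 0.13, on 11 residual degrees of freedom). The genes were chosen with earlier results of these data known, and no comparable scores of other genes were computed. The separation here and in the hippocampus is therefore no evidence beyond the values of the single genes.

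In the hippocampus the 5-gene mean was 0.12 higher in TDP-43KQ/KQ mice, with Arntl again 0.05 lower. The mean minus Arntl was -0.10, -0.34 and -0.10 in TDP-43wt females and -0.22 in the male, against 0.10, -0.06 and -0.04 in TDP-43KQ/KQ females and -0.01 and -0.05 in males. These genotypes did not overlap, with means 0.18 apart. The lowest TDP-43KQ/KQ value is that of female 2, which mirrors its neocortical partner; without it the lowest was -0.05, in male 2. In both regions most of this distance came from the 5 genes, whose share was 0.27 of 0.32 and 0.12 of 0.18, and less from Arntl.

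Between regions the 2 arms did not oppose each other. From neocortex to hippocampus the 5-gene mean was 0.10 lower in TDP-43wt mice and 0.26 lower in TDP-43KQ/KQ mice, and Arntl was 0.24 lower in both. The mean minus Arntl therefore stood 0.14 higher in the hippocampus of TDP-43wt mice and 0.01 lower in that of TDP-43KQ/KQ mice. With Nr1d1, Nr1d2 and Ciart added to the mean, the TDP-43wt value was 0.04 in place of 0.14.

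**Figure D3:**
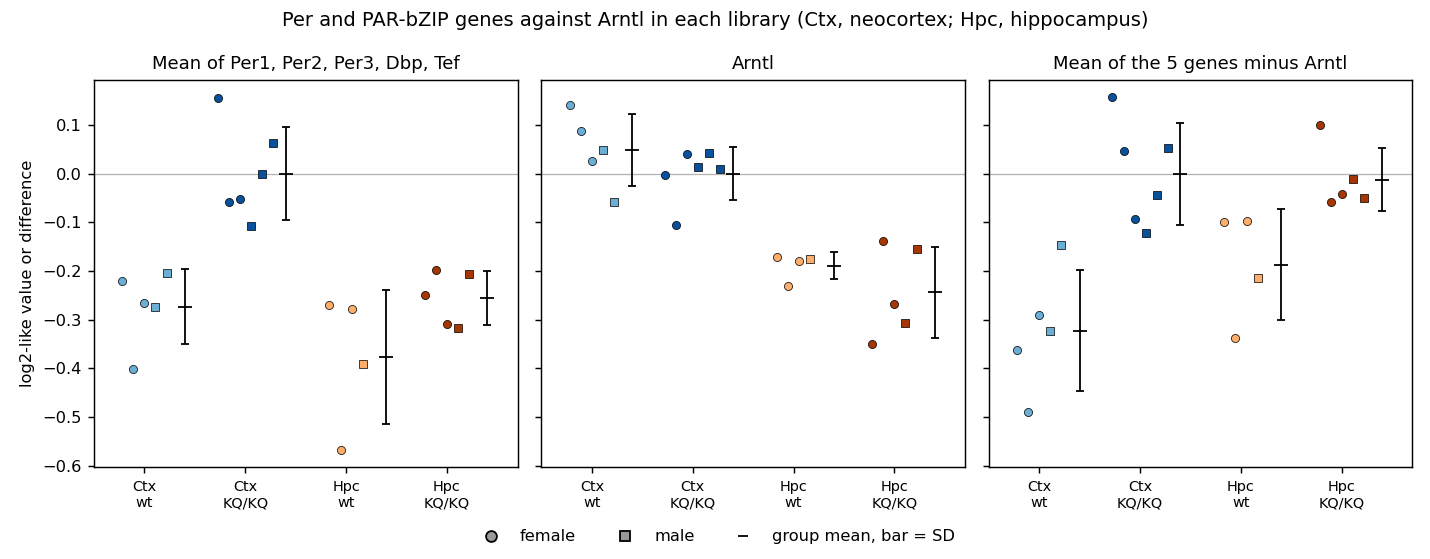
Mean of Per1, Per2, Per3, Dbp and Tef, Arntl, and the difference of the former from the latter in each library (log2-like values; circles female, squares male; bars are the group mean with the SD). The difference separates the genotypes in both regions, from -0.49 to -0.15 against -0.12 to 0.16 in the neocortex and from -0.34 to -0.10 against -0.06 to 0.10 in the hippocampus, while Arntl alone overlaps between genotypes. The genes were chosen with earlier results of these data known, so the separation is a description.

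The comparison of regions gave the largest differences of the clock genes. In TDP-43wt mice 7 of the 10 members were lower in the hippocampus than in the neocortex and none was higher, beside 14.7% of all genes called lower; in TDP-43KQ/KQ mice 8 of 10 were lower, the same 7 with Tef, beside 18.2%. The members' median was -0.26 in TDP-43wt and -0.34 in TDP-43KQ/KQ mice, against 0.01 for all genes in each. The lower genes included activators, outputs and repressors of the loop, but Per2 and Per3 passed in neither genotype and Tef did not pass in TDP-43wt mice.

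Npas2, the partner of BMAL1 that is prominent in forebrain, was lowest against the neocortex in TDP-43wt mice. Its 4 hippocampal values of -0.52 to -0.47 lay far from the neocortical 0.01 to 0.14, a difference of -0.56 ± 0.067 (adjusted p = 1.39e-05, limma). In TDP-43KQ/KQ mice it was -0.44 ± 0.059 (adjusted p = 3.21e-05). Arntl was lower by 0.24 in each genotype (-0.24 ± 0.058, adjusted p = 0.00652, and -0.24 ± 0.051, adjusted p = 0.00173, limma). Its regions did not overlap in either genotype, and the share of all genes with that pattern was not computed. In TDP-43KQ/KQ mice both edges, -0.10 in the neocortex and -0.14 in the hippocampus, were those of female 2, whose libraries mirror each other.

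Among the E-box targets Ciart differed by -0.45 ± 0.053 in TDP-43wt and -0.45 ± 0.046 in TDP-43KQ/KQ mice (adjusted p = 1.16e-05 and 2.21e-06, limma). Dbp had neocortical values of -0.33 to 0.01 and hippocampal values of -0.62 to -0.48 in TDP-43wt mice, a difference of -0.39 ± 0.082 (adjusted p = 0.00196), and differed by -0.50 ± 0.072 in TDP-43KQ/KQ mice (adjusted p = 6.62e-05). The REV-ERB genes followed the same direction, Nr1d1 at -0.36 ± 0.069 and -0.45 ± 0.060 (adjusted p = 0.00108 and 3.11e-05) and Nr1d2 at -0.28 ± 0.058 and -0.20 ± 0.051 (adjusted p = 0.00201 and 0.00598). Arntl, which the REV-ERB proteins repress, was thus lower in the same region as their transcripts.

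The Per genes split. Per1 differed by -0.25 ± 0.072 in TDP-43wt mice (adjusted p = 0.0169) and by -0.45 ± 0.063 in TDP-43KQ/KQ mice (adjusted p = 5.14e-05). The call of Per1 in TDP-43wt mice was lost without neocortex female 1, neocortex female 3 or hippocampus female 3 (adjusted p = 0.0641, 0.0574 and 0.0508). Per2 differed by -0.02 ± 0.12 and -0.18 ± 0.11 (adjusted p = 0.938 and 0.21) and Per3 by 0.19 ± 0.20 and 0.02 ± 0.17 (adjusted p = 0.506 and 0.944). Tef differed by -0.04 ± 0.049 in TDP-43wt mice (adjusted p = 0.54) and -0.17 ± 0.043 in TDP-43KQ/KQ mice (adjusted p = 0.00647); the test of the difference between these 2 is the contrast of -0.13 given above, which did not pass.

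**Figure D4:**
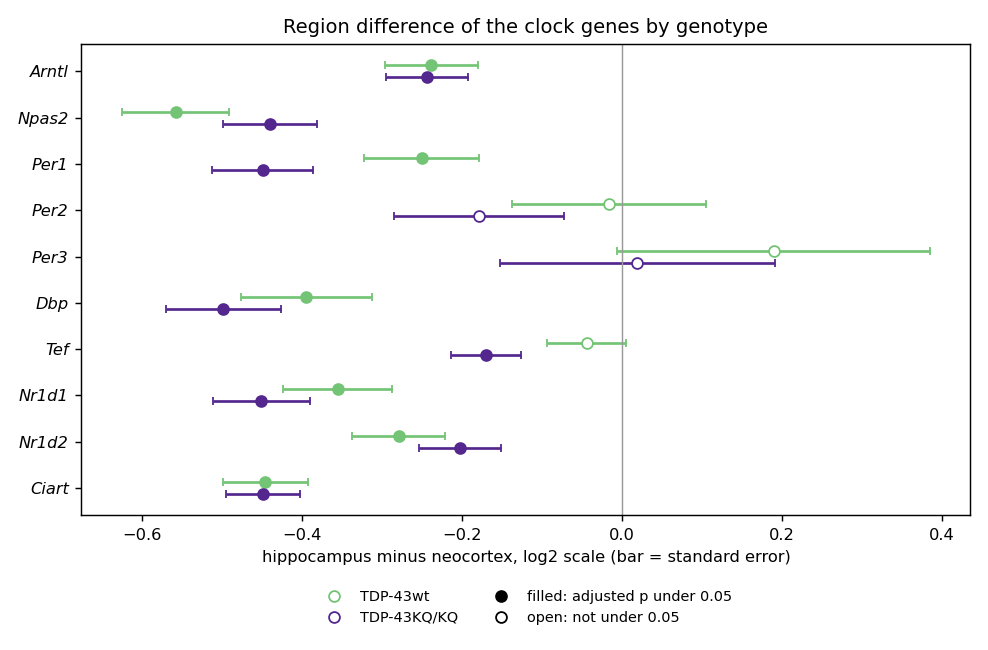
Hippocampus minus neocortex on the log2 scale for each clock gene in TDP-43wt and TDP-43KQ/KQ mice, with its standard error; filled symbols passed the adjusted test. Arntl, Npas2, Per1, Dbp, Nr1d1, Nr1d2 and Ciart are lower in the hippocampus in both genotypes and Tef in TDP-43KQ/KQ mice, whereas Per2 and Per3 are not called in either.

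The order of the 4 groups differed by gene. For Per1 the group means fell from neocortex TDP-43KQ/KQ (0.00) through neocortex TDP-43wt (-0.36) and hippocampus TDP-43KQ/KQ (-0.45) to hippocampus TDP-43wt (-0.61), and Tef, Dbp and Ciart began and ended with the same groups. For Arntl the order was neocortex TDP-43wt (0.05), neocortex TDP-43KQ/KQ (0.00), hippocampus TDP-43wt (-0.19) and hippocampus TDP-43KQ/KQ (-0.24). Neighbours of the same region in these orders did not differ by the adjusted test in any member.

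The members differed in how much single libraries scattered. After group, sex and litter the residual SD was 0.32 for Per3 and 0.19 for Per2, larger than in 98.1% and 92.8% of all genes tested, against a median gene of 0.088. It was 0.064 for Tef and 0.071 for Ciart, larger than in 18.4% and 27.1%, and 0.082 for Arntl. TDP-43wt female 2 was the lowest library of its group for Per1, Per2 and Per3 in the neocortex (-0.52, -0.52 and -0.56) and again in the hippocampus (-0.73, -0.68 and -0.61). Per3 lies 2.37 Mb from Tardbp on chromosome 4, at 150997018 to 151044707 in the mm10 annotation.

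Libraries that were high for one clock gene were high for some others. Pearson's r of the residuals was computed over the 20 libraries, as a description: the libraries share the litter and sex removal, 11 residual degrees of freedom remain, and 2 libraries mirror each other. Dbp was most like Nr1d2 (0.78), Nr1d1 (0.74) and Ciart (0.70), at ranks 29, 68 and 114 of 17862 genes ordered by likeness to Dbp. Per2 and Per3 had r = 0.69, which put Per3 at rank 1613 by likeness to Per2 and Per2 at rank 2008 by likeness to Per3, so that many genes outside the clock were more like either. Per1 had 0.55 to Per2, at rank 2880, and Tef had 0.59 to Per3, with Per3 at rank 479 by likeness to Tef. Dbp and the Per genes were not alike over the 20 libraries, with r from -0.07 to 0.03. For Dbp and Per3 the r was 0.32 in the neocortex alone and -0.46 in the hippocampus alone. The r of Dbp to Nr1d2, Nr1d1 and Ciart was 0.87, 0.74 and 0.85 in the neocortex alone. In the hippocampus alone it was 0.44, 0.73 and 0.42.

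Arntl stood in no clear opposition to the rest. Its r to the other members ran from -0.31 (Dbp and Ciart) to 0.26 (Per1), at ranks 3410 (Per1) to 14761 (Ciart) of 17862 genes. In the neocortex alone, over 11 libraries, r was -0.50 to Ciart and -0.42 to Dbp, and in the hippocampus alone, over 9, it was -0.08 and -0.13. The genes most like Arntl were Fhl2 (0.88), Uchl1os, Acyp1, Lypla2 and Twist2 (0.84), and the least like it were Irf5 (-0.90), Lrpprc, Lrguk, Tenm1 and Vwa2 (-0.83).

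**Figure D5:**
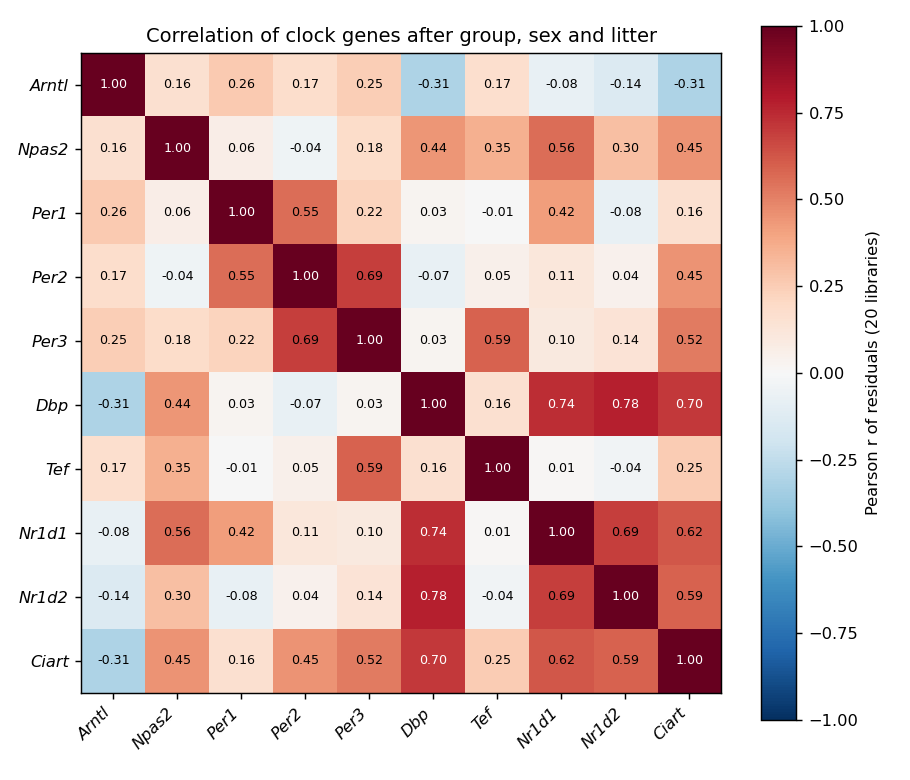
Pearson's r between the clock genes over 20 libraries, of the residuals after group, sex and litter; red is positive and blue negative. Dbp, Nr1d1, Nr1d2 and Ciart form a block from 0.59 to 0.78 and the r of Per2 and Per3 is 0.69, while Arntl reaches -0.31 at its lowest. Within regions, which are not drawn, the block ran from 0.66 to 0.87 in the neocortex and from 0.41 to 0.83 in the hippocampus.

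The rest of the clock pathway was described through 16 further genes, all of which could be tested. By genotype none passed in either region. In the neocortex the largest values were those of Bhlhe40 and Bhlhe41, E-box repressors also called DEC1 and DEC2, at 0.31 ± 0.089 and 0.26 ± 0.090 (adjusted p = 0.164 and 0.241), of Arntl2 at 0.27 ± 0.11 (adjusted p = 0.305) and of the ROR activator Rora at 0.20 ± 0.080 (adjusted p = 0.29). In the hippocampus these 4 differed by 0.12, 0.10, 0.13 and 0.09. The PAR-bZIP gene Hlf differed by 0.05 ± 0.056 in the neocortex and by 0.00 ± 0.060 in the hippocampus (adjusted p = 0.714 and 0.997, limma). The list's medians were 0.05 and 0.02.

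By region most calls of this list had the direction of the members. In TDP-43wt mice 7 of 16 were lower in the hippocampus, and in TDP-43KQ/KQ mice 9 were, beside 14.7% and 18.2% of all genes. The largest was Rorb, an activator at ROR elements and a marker of cortical layer 4, at -0.90 ± 0.087 and -1.04 ± 0.076. Rora differed by -0.46 and -0.57, Cry1, a partner of the PER proteins, by -0.39 and -0.42, the PAR-bZIP gene Hlf by -0.32 and -0.36, and the casein kinase gene Csnk1e by -0.26 and -0.31, all called in both genotypes. Clock itself differed by 0.01 ± 0.047 and 0.04 ± 0.041 (adjusted p = 0.949 and 0.537).

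A list of 6 output genes gave the same split. By genotype none was called, with values from -0.08 to 0.15. By region all 6 passed in both genotypes, beside 5041 of 17863 genes in TDP-43wt and 6316 in TDP-43KQ/KQ mice. The deubiquitinase gene Usp2, the cell-cycle kinase gene Wee1, Klf9, Klf10 and Coq10b were lower in the hippocampus (-0.45 to -0.27 in TDP-43wt mice). Nampt, the rate-limiting enzyme of NAD salvage, was higher (0.23 ± 0.073, adjusted p = 0.0281, limma).

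Per genes respond to glucocorticoids, neuronal activity and body temperature as well as to the clock, so genes of those inputs were read beside it; their part in the differences was not tested. Of 12 glucocorticoid-induced genes none was called in the neocortex, where 8 had an unadjusted p under 0.05, beside 14.4% of all genes tested, and the list's median was 0.33. In the hippocampus the kinase gene Sgk1 rose by 0.59 ± 0.12 and Pdk4 by 0.55 ± 0.11 (adjusted p = 0.0494 and 0.0391), and the median was 0.21. In the neocortex Sgk1 differed by 0.57 ± 0.11 (adjusted p = 0.0508), Errfi1 by 0.35 ± 0.082 (adjusted p = 0.0878) and Fkbp5 by 0.16 ± 0.13, while the metallothionein gene Mt1 had -0.25 ± 0.089.

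The other inputs had no call by genotype. Of 8 temperature-dependent genes, 7 in the neocortex had an unadjusted p under 0.05, beside 14.4% of all genes tested. Directions were mixed, from the cold-induced Rbm3 at 0.43 ± 0.11 (adjusted p = 0.141, limma) to the chaperone gene Hspa8 at -0.16 ± 0.054. Of 11 immediate early genes, 9 in the neocortex and 10 in the hippocampus had negative values, with medians of -0.14 and -0.10; Ier2 had -0.23 ± 0.062 and -0.21 ± 0.066 (adjusted p = 0.142 and 0.184). By region 10 of the 11 immediate early genes were lower in the hippocampus in each genotype. Beside them, 14.7% of all genes were called lower in TDP-43wt and 18.2% in TDP-43KQ/KQ mice. The list's medians were -0.70 and -0.66, with Egr1 at -1.33 ± 0.16 in TDP-43wt mice.

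Cell type markers differed between the groups as well, and their part in the clock gene values was not tested. None of the 32 markers of 7 cell types was called by genotype. All 5 oligodendrocyte markers were negative in both regions (-0.21 to -0.13 and -0.34 to -0.27), with list means of 0.08 to 0.34 in TDP-43wt against -0.12 to 0.11 in TDP-43KQ/KQ neocortex and of 0.35 to 0.57 against 0.03 to 0.34 in the hippocampus. All 6 choroid plexus markers had positive values of 0.84 to 1.64 in the hippocampus, with list means of -0.06 to 2.18 in TDP-43wt and 0.35 to 3.87 in TDP-43KQ/KQ libraries. The 3 inhibitory neuron markers had values of -0.30 to -0.23 in the neocortex, where their list means, 0.20 to 0.32 in TDP-43wt and -0.12 to 0.09 in TDP-43KQ/KQ libraries, did not overlap. The 3 excitatory neuron markers had -0.31 to -0.19 in the hippocampus, with list means of 0.54 to 0.68 against 0.17 to 0.42, again without overlap. All 3 of each had an unadjusted p under 0.05 there, beside 14.4% of all genes in the neocortex and 14.8% in the hippocampus. The 5 microglial markers were negative in both regions, at -0.30 to -0.02 and -0.31 to -0.08. By region the 3 inhibitory neuron markers were lower in the hippocampus in both genotypes, beside 14.7% and 18.2% of all genes. Of the 5 astrocyte markers, 3 in TDP-43wt and 4 in TDP-43KQ/KQ mice were higher, beside 2418 and 3069 of 17863 genes. The scale holds no level, so whether a marker is near 0 in a group could not be read.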

How the data were processed

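Libraries of 20 brain samples were grouped by region and genotype from the labels. Reads had been trimmed by the authors (cutadapt), mapped to mm10 with RefSeq genes (STAR 2.5.2b) and quantified (salmon). The deposited log2-like values are the expression that the authors variance-stabilized with DESeq2 1.34.0 (R 4.1.0) and cleared of sex and litter with limma; no depth remains, and precision rests on the number of libraries. Genes at 0 throughout (4383) or with tied values (tolerance 1e-06) were left out, 6665 in all. limma 3.58.1 in R 4.3.3 (lmFit, eBayes) was fitted to 17863 genes over all libraries with group, sex and litter, leaving 11 residual degrees of freedom after those the removal had used, with Benjamini-Hochberg adjustment and a threshold of 0.05. The script was tested on simulated data. Errors after ± are standard errors; intervals are 95%. The members and all gene lists were chosen with earlier results of these data known. Named were all members, the called genes of other lists (at most 6 a list by lowest p) or else their 4 largest differences, and 5 genes at each end of the likeness to Arntl; further genes were chosen after their values were seen. Gene positions are from RefSeq (GRCm38.p6). Alternatives were other model terms, random effects for litter or mouse, a replicate block, no filter, robust variance, median centring, each region alone and each library left out.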

Additional observations from a re-analysis of the deposited data

Results flagged for a closer look

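Among the 40 groups formed by 10 clock genes in 4 groups of libraries, 5 had a library far from its group by Dixon's criterion; chance flags about 1 in 20 groups. Arntl was -0.10 in neocortex TDP-43KQ/KQ female 2, below the other 5 libraries (0.00 to 0.04). The value of the same label in the hippocampus, -0.14, is the highest of its group. The litter removal requires equal and opposite deviations of this pair, but not that rank. Arntl was -0.23 in hippocampus TDP-43wt female 2, below the others at -0.18 to -0.17. Dbp was 0.25 in neocortex TDP-43KQ/KQ female 1, above the others at -0.08 to -0.02. Dbp was -0.62 in hippocampus TDP-43wt female 1, below the others at -0.50 to -0.48, and Tef was -0.23 in the same library, above the others at -0.32 to -0.31.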

How the results depend on the processing

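The region differences were stable: 7 members in TDP-43wt and 8 in TDP-43KQ/KQ mice were called under each of the other settings, and 6 to 7 and 8 to 8 with single libraries left out. The genotype calls were not. In the neocortex 4 members (Per1, Per2, Tef and Ciart) passed with group as the only term, with group and sex without litter, and with litter as a random effect; in the hippocampus 2 (Tef and Ciart), 1 (Ciart) and 2 passed. By construction these fits do not count the degrees of freedom that the removal of litter had used, and the first of them called 2381 genes in the neocortex against 40. Robust variance estimation called 2 members in the neocortex (Per1 and Tef), no filter called 1 (Tef), and single libraries left out gave 0 to 2. Replicate numbers are shared by the genotypes, and same-numbered libraries of a region had r = -0.60 to 0.12 over 9 pairs. The litter removal ties the deviations within a litter, so whether such pairs share a batch cannot be read from these values. The replicate block called 1 member in the neocortex (Per1, adjusted p = 0.00993, limma) and 0 in the hippocampus. A random effect for the 6 possible female mice (correlation 0.274) and each region alone called 0 in either region. Setting the 5-gene mean against the mean of Arntl and Npas2 moved its region difference in TDP-43wt mice from 0.14 to 0.29, and adding Nr1d1, Nr1d2 and Ciart to it gave 0.0387. In TDP-43KQ/KQ mice that difference, -0.0119, was -0.0539 with those 3 genes, 0.0364 without Per1 and 0.0864 against the mean of Arntl and Npas2. Signs turned in members whose differences were near 0: Nr1d1 in the hippocampus by genotype (-0.00616 with the mouse effect, -0.00584 with the replicate block and -0.011 with the region alone), Arntl and Ciart in the difference between regions (0.00691 with the mouse effect and 0.0463 with separate sex and litter terms by region), Per2 by region in TDP-43wt mice (0.0336 with the block) and Per1 by sex (0.0701 with the block); for these the cause was not tested. Without single libraries the sign turned for Nr1d2 in the neocortex (-0.0256 to 0.0834), for Arntl (-0.084 to 0.00349), Per3 (-0.0455 to 0.244), Dbp (-0.00966 to 0.0587) and Nr1d1 (-0.0176 to 0.0433) in the hippocampus, for Arntl (-0.0555 to 0.0414) and Ciart (-0.0475 to 0.035) between the regions' differences, for Per2 in TDP-43wt (-0.165 to 0.105) and Per3 in TDP-43KQ/KQ mice (-0.0658 to 0.123) by region, and for Per2 (-0.0573 to 0.156), Per3 (-0.279 to 0.102) and Tef (-0.0159 to 0.0655) by sex. The table holds no counts, so what depth limits could not be given.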
